A study of Mus musculus with 8 samples.

Results

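RAW 264.7 cells exposed to Bifidobacterium bifidum were compared with untreated RAW 264.7 cells on the 3 arrays that carry this bacterium in their titles, out of 8 arrays in the series. RAW 264.7 is a macrophage-like line established from a BALB/c mouse tumour. The cells received Lactobacillus acidophilus (2 arrays analysed here), Bacillus clausii (3 arrays) or B. bifidum (3 arrays), each alone for 6 hours at a multiplicity of infection of 1, meaning as many bacteria as cells. All groups were kept in the same medium without antibiotic. On every array Cy5 marked the RNA of treated cells and Cy3 the RNA of time-matched untreated cells, so each value is a log2 ratio of treated over untreated within 1 array.

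B. bifidum is a Gram-positive anaerobe of the gut that is sold as a probiotic. Macrophages sense the lipoproteins and peptidoglycan of such bacteria mainly through Toll-like receptor 2 and NOD proteins. Toll-like receptor 2 acts through MyD88 and NF-kB to induce cytokines and chemokines. Receptors in endosomes and the cytosol feed the interferon regulatory factors and the interferon-stimulated genes.

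The 3 arrays lie on different slides. Replicates 1 and 2 share slide 2 with B. clausii replicates 1 and 2, and replicate 3 lies on slide 1 with the other 3 arrays of the series analysed here. Between 21508 and 26292 probes were well above background on the B. bifidum arrays, and 10146 genes had a usable value and a signal above background in both channels on all 3. Between 84 and 124 spots were saturated on replicates 1 and 2 and 0 on replicate 3, and such spots were left out. Another array of slide 1, B. clausii replicate 3, had a spot grid marked as failed in its header and only 12543 probes above background. The series describes the replicates as biological, but the labels do not say which culture an array came from. The p-values therefore reflect the scatter of the 8 fitted arrays alone, which may be technical. Replicates 1 and 2 differed by an SD of 0.067 (log2) over 81 probes with 10 spots each, against 0.053 from the repeated spots alone. The dyes were never swapped, so dye bias of a probe and response to the bacterium cannot be told apart.

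The cells carried the markers of macrophages. Of 20 measured macrophage genes, 18 were above background in both channels on all 3 arrays, including Adgre1 (F4/80), Csf1r, Itgam, Cd14 and Lyz2. Of the marker genes of other cells, 2 of 5 for T cells (Lck, Cd4), 0 of 4 for B cells, 2 of 4 for neutrophils (S100a8, Mpo), 1 of 3 for dendritic cells (Zbtb46), 0 of 5 for fibroblasts and 0 of 1 for epithelial cells were above background in this way. None of these 5 detected genes passed the test over 3 arrays or on slide 2. A fibroblast collagen gene, Col1a2, passed on slide 2 without being above background in both channels on all arrays.

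Over all 3 arrays, few genes changed in the same way, and more of them fell than rose. With limma's moderated test and Benjamini-Hochberg adjustment at 0.05, 223 of 15202 genes passed (1.47%), 57 higher (0.375%) and 166 lower (1.09%), while 2856 had an unadjusted p below 0.05. Of the 223 genes, 217 had a value on all 3 arrays with the same sign on each. The test also covers genes with a missing array, and some of the rest lack values. Lars2, for example, is among the 223 with a value on replicate 3 alone (-1.585). The genes that fell included regulators of chromatin, RNA and the Golgi, and those that rose included RNA-binding proteins, heat shock proteins, a chemokine and a lipid droplet protein.

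Among genes with values and signal above background on all 3 arrays, the largest fall was that of Rnf20, a ubiquitin ligase for histone H2B. Its log2 ratio was -2.06, -1.75 and -0.63 on replicates 1, 2 and 3, a mean of -1.48 ± 0.22 (n = 3 arrays, adjusted p 0.0219). All 3 arrays were below 0, and replicate 3 was the least so. Values after ± are limma's moderated SE throughout. Its spread is estimated over all 8 arrays of the fit and is not the scatter of the listed values alone. Golgb1 (giantin, a Golgi tether) stood at -1.80, -1.36 and -0.71 and had a mean of -1.29 ± 0.17. Trip11 (a golgin of the same membranes) stood at -1.53, -1.14 and -0.78, with a mean of -1.15 ± 0.12. Dicer1, which cuts microRNA precursors, stood at -1.82, -1.53 and -0.37. By its brightest probe, which represents it, each of these genes was lower on every array, with the 2 arrays of slide 2 further from 0 than replicate 3. The dimmer probes did not all follow. One of Golgb1 stood at 0.29, 0.21 and 0.42, one of Trip11 at -0.25, -0.31 and 0.35, the second of Rnf20 at -0.46, -0.12 and 0.41 and the second of Dicer1 at 0.15, -0.06 and -0.20.

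Ubap2l, a stress granule protein, stood at -0.99, -0.78 and -1.17, and Rpl22l1, a ribosomal protein paralogue chosen after its values were seen, at -0.81, -0.90 and -1.12. In both, replicate 3 was the lowest array, but the 3 dimmer probes of Ubap2l had means over 3 arrays of 0.06, -0.04 and -0.20. Fam102b (-1.08), Tnrc18 (-0.997) and Esf1 (-0.97) complete the 8 largest mean falls. Mitf, a lineage factor of osteoclasts and melanocytes that was also chosen after its values were seen, fell over 3 arrays, at -1.08, -0.99 and -0.78 (adjusted p 0.0034). Its 3 arrays were closer together than those of Rnf20.

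The rises over 3 arrays were smaller. Ptma, the nuclear protein prothymosin alpha, stood at 0.78, 0.94 and 0.91, a mean of 0.88 ± 0.11 (adjusted p 0.0148). Its 3 arrays were close together, but a second, dimmer probe of the gene stood at -0.42, -0.53 and -0.55, so its direction depends on the probe. Dhx9, an RNA helicase, stood at 0.84, 0.93 and 0.53, and Hnrnpk, a splicing and RNA-binding protein, at 0.72, 0.95 and 0.58. Hnrnpk also has a dimmer probe of the other sign on slide 2, with a mean of -0.66. The remaining members of the 8 largest rises were Ndrg4 (0.73), Morf4l1 (0.67), Gsn (gelsolin, which severs actin filaments; 0.67), Rnf149 (0.65) and Efhd2 (0.65). Morf4l1 has 4 probes, which ranged from -0.47 to 0.86 on slide 2. In the plot of the largest rises and falls, the 3 arrays agree in sign for these genes because the choice required it. Genes chosen on slide 2 alone, without that condition, mostly sit near 0 on replicate 3.

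**Figure D1:**
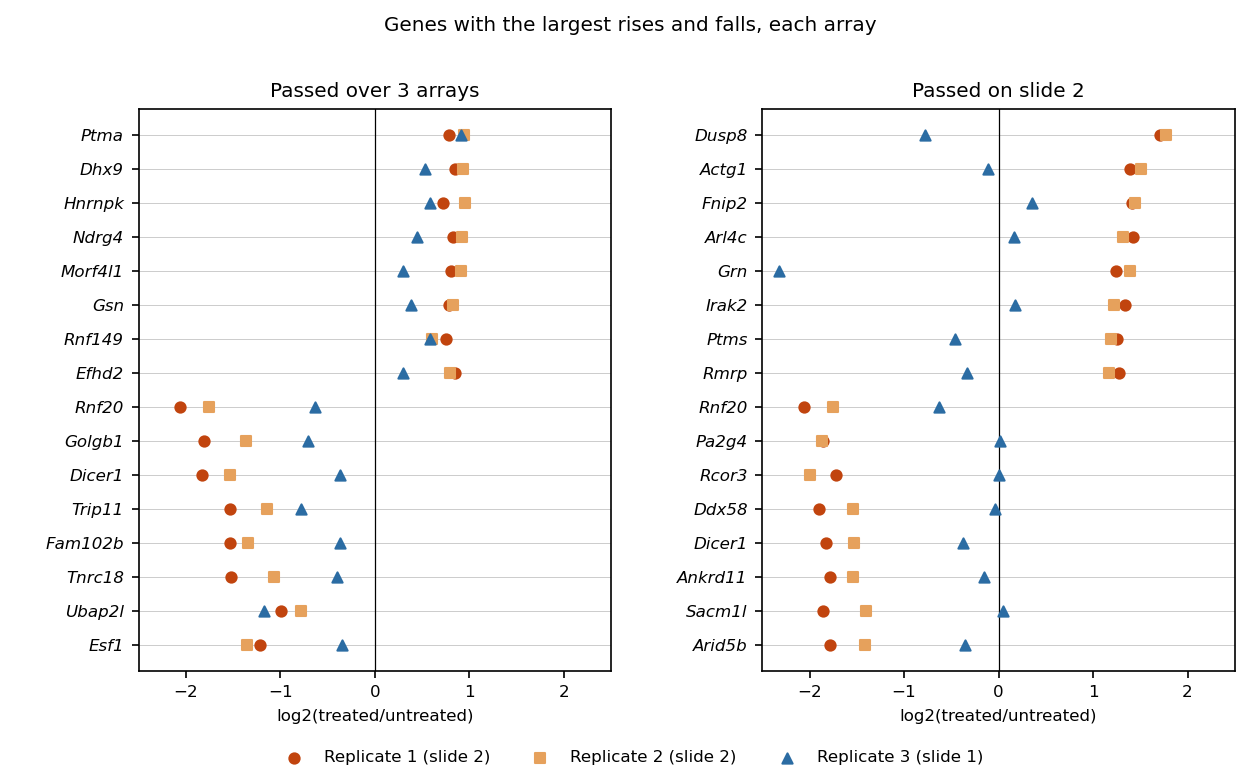
Log2 ratio of treated over untreated (x axis) for the 8 largest rises and 8 largest falls past an adjusted p of 0.05 over 3 arrays (left) and on slide 2 (right), 1 symbol per array. On the left all 3 arrays lie on the same side of 0 by the choice of genes, from Ptma at 0.78 to 0.94 to Rnf20 at -2.06 to -0.63. On the right replicate 3 of Grn (-2.32) and Dusp8 (-0.78) lies opposite to slide 2.

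The count over 3 arrays depended on single arrays. It was 0 without B. bifidum replicate 1 and 0 without replicate 2, with 1224 and 1370 genes at an unadjusted p below 0.05, and 2035 without replicate 3. Leaving out an L. acidophilus array gave 20 in either case. The count was 49 and 48 without B. clausii replicates 1 and 2, and 1348 without B. clausii replicate 3. All arrays share 1 estimate of the spread. With the scanner's own processed signals 1 gene passed and with median centring of the log ratios, in place of loess, 20. With slide added to the fit as a fixed term the count was 2087, 13.7% of those tested. Of these, 586 were higher (3.85%) and 1501 lower (9.87%).

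On slide 2 alone, B. bifidum-treated cells differed from untreated cells in a large share of genes. Tested as the mean of replicates 1 and 2, 6096 of 15171 genes passed (40.2%), 2374 higher (15.6%) and 3722 lower (24.5%), against medians of all genes of -0.01 on each of replicates 1 and 3 and -0.02 on replicate 2. The split between directions moved with the scaling, to 2601 higher and 2514 lower with the scanner's processed signals and to 2539 and 2550 with the deposited value table. Only 121 genes passed with a log2 ratio past 1 in size, 17 higher and 104 lower. Array by array, 157 genes lay past 1 in size on replicate 1 (1.04%), 109 on replicate 2 (0.719%) and 22 on replicate 3 (0.145%), where 1 was higher (0.00659%) and 21 were lower (0.138%). Without replicate 1, 3647 genes passed. Loess removes any trend of the ratio with brightness, and median centring does not.

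The highest gene on slide 2 was Dusp8, a phosphatase of stress-activated MAP kinases. It stood at 1.71 and 1.77 on slide 2, a 3.34-fold rise (log2 1.74 ± 0.05, adjusted p 5.63e-05), and at -0.78 on replicate 3. Slide 2 and replicate 3 thus lay on opposite sides of 0, and 2 dimmer probes of the gene were near 0 on slide 2 (0.07 and -0.00288). Fnip2, a partner of folliculin in nutrient sensing, stood at 1.42, 1.44 and 0.36. Irak2, a kinase downstream of MyD88, stood at 1.34, 1.22 and 0.17. Both were above 0 on all 3 arrays, and both have 1 probe, but replicate 3 was lower by about 1 on the log2 scale and their adjusted p over 3 arrays was 0.0636 and 0.0628.

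Actg1 (cytoplasmic gamma actin) stood at 1.39, 1.51 and -0.12, with both of its probes up on slide 2 (1.45 and 0.94). Arl4c, a small GTPase, stood at 1.42, 1.32 and 0.16, but its dimmer probe had a mean of 0.08 on slide 2. Ptms (1.22 on slide 2) and Rmrp (1.22), the RNA of RNase MRP, were below 0 on replicate 3, at -0.47 and -0.34. Ptms has a second probe of the opposite sign on slide 2, at -1.30. Apart from Fnip2, Irak2 and Arl4c, the 8 highest genes of slide 2 were all below 0 on replicate 3.

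Among the deepest falls of slide 2, Pa2g4, a growth-linked RNA-binding protein, stood at -1.86, -1.87 and 0.01, a 3.65-fold fall (log2 -1.87 ± 0.04, adjusted p 5.63e-05). Rcor3, a corepressor of the REST complex family, stood at -1.72, -1.99 and 0.00253. Ddx58, which encodes the RNA sensor RIG-I, stood at -1.90, -1.54 and -0.04. All 3 genes were far below 0 on slide 2 and near 0 on replicate 3. The untreated level of Ddx58 (log2 intensity) was 10.36 and 10.65 on replicates 1 and 2 but 6.97 on replicate 3. Its ratio on replicate 3 thus comes from a much dimmer signal. Ankrd11 (-1.66), Sacm1l (-1.63) and Arid5b (-1.60) were the other genes of this group that are not among the falls over 3 arrays. The 3 probes of Arid5b ranged from -1.60 to 0.56.

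Where a gene with a large change on slide 2 had a second probe, that probe often did not follow. Each gene is represented here by its brightest probe among those with values on the most B. bifidum arrays. Of the 104 genes that fell past 1, 70 had at least 1 other probe above the filter, and in 8 of them every other probe fell past 0.5, whereas in 46 none did. The median of those other probes was -0.15. Of the 17 genes that rose past 1, 8 had another probe, with all past 0.5 in 2 and none in 6. Over 3 arrays, 82 of the 166 genes that fell had another probe, with all past 0.5 in 4 and none in 72, and 23 of the 57 that rose had one, with none past 0.5 in any of the 23. For Pa2g4 the other probe stood at 0.08 on slide 2, for Dicer1 at 0.04, for Rcor3 at -0.19, for Rnf20 at -0.29 and for Fam102b at -0.05. The 3 other probes of Ddx58 stood at 0.01, -0.22 and -0.22. The 4 other probes of Golgb1 ranged from -0.88 to 0.25. Esf1 is a gene whose probes moved together, at -1.28, -1.05 and -0.68. Whether the probes of a gene read different transcripts was not tested.

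**Figure D2:**
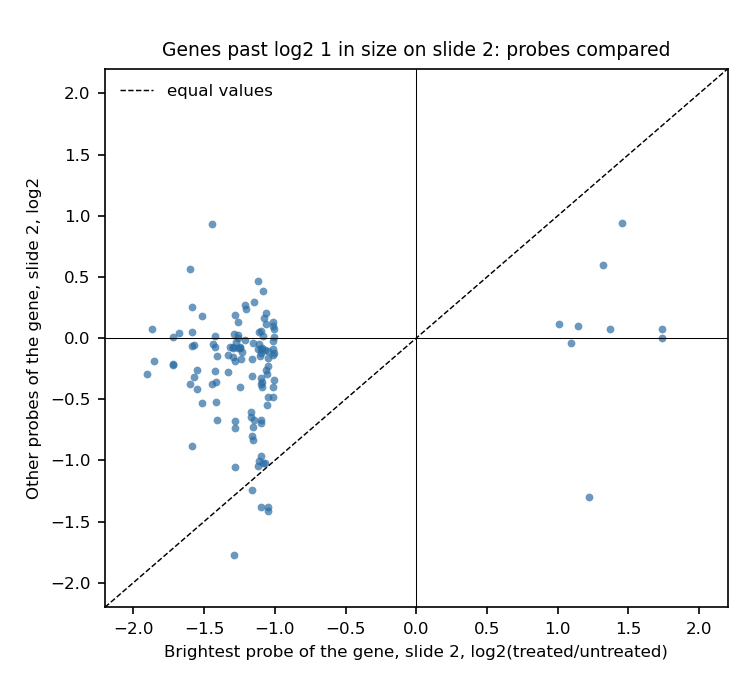
Each point is a further probe of a gene that passed on slide 2 with a log2 ratio past 1 in size. The x axis gives the probe that represents the gene (labelled brightest) and the y axis the further probe. Both are mean log2 ratios of replicates 1 and 2. Most points lie near 0 on the y axis, away from the dashed line of equal values, with a median of -0.15 for the genes that fell.

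Replicate 3 did not share the pattern of slide 2. Over the 10146 genes detected on all 3 arrays, which are not independent of each other, the log2 ratios of replicates 1 and 2 correlated with r = 0.937 (rho 0.920), those of replicates 1 and 3 with r = -0.03 and those of replicates 2 and 3 with r = -0.03. The levels of the untreated channel alone correlated with 0.973 within slide 2 and 0.910 to 0.935 across slides. The SD of the log2 ratios over genes was 0.348, 0.315 and 0.221 on replicates 1, 2 and 3. The median gap between replicates 1 and 2 was 0.07 and that between their mean and replicate 3 was 0.24.

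Of the 6096 genes called on slide 2, 6067 had a value on replicate 3 and 2952 had the same sign there. Of the 121 genes past 1 on slide 2, 7 were past 0.5 in the same direction on replicate 3, all of them falls. They were Rnf20, Golgb1, Trip11, Mitf, Baz1b (a chromatin remodelling subunit), Dnajc2 (a ribosome-bound cochaperone) and Ccl4 (MIP-1 beta). The difference between slide 2 and replicate 3, tested in the same fit with the lone array assumed to vary like the others, passed for 4518 of 15138 genes (29.8%), 1903 higher on slide 2 (12.6%) and 2615 lower (17.3%). The sign was opposite on the slides in 3389 of them. With the scanner's processed signals 1826 genes passed and with median centring 1452, of which 162 were higher and 1290 lower. Slide, scan settings and culture cannot be told apart here.

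**Figure D3:**
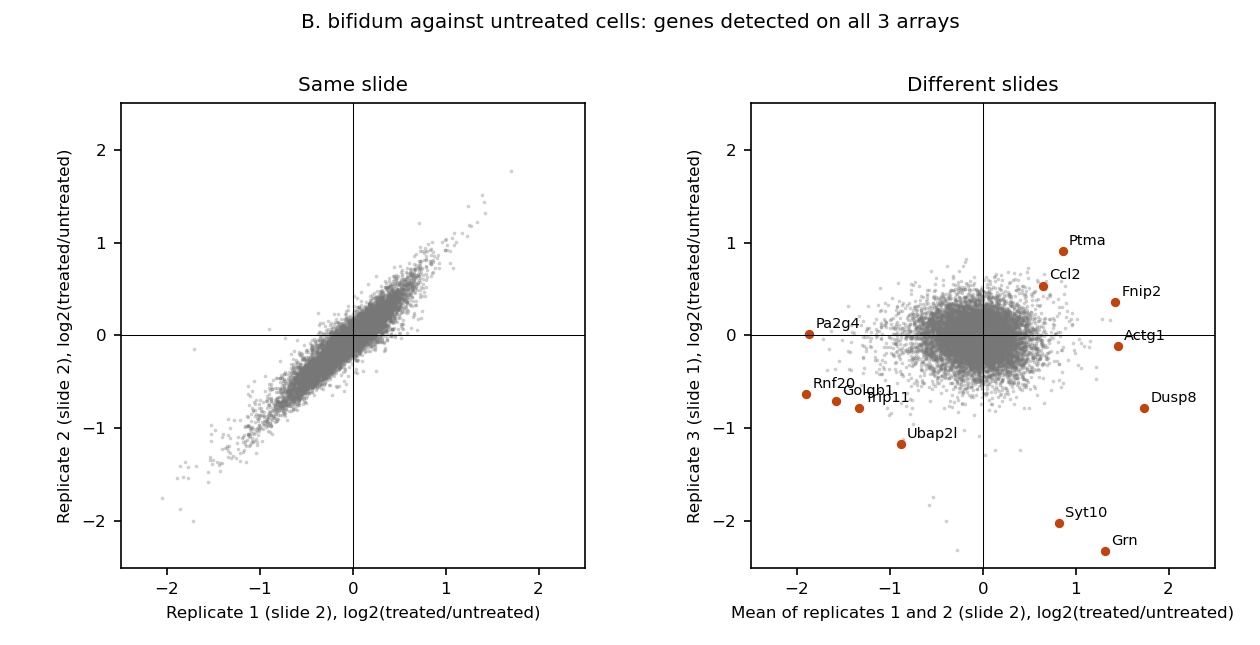
Log2 ratios of treated over untreated for the 10146 genes detected on all 3 arrays: replicate 2 against replicate 1 (left, r = 0.937) and replicate 3 against the mean of replicates 1 and 2 (right). The left cloud follows the diagonal, the right one is round around 0, and named genes in red include Rnf20, Golgb1 and Trip11, low on both axes, and Grn and Syt10, high on slide 2 and low on replicate 3.

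The 5 genes furthest apart in each direction were sought only among those that passed for this difference and had opposite signs on the slides. They included Grn (progranulin, a lysosomal and secreted protein) at 1.24, 1.39 and -2.32. Its second probe had the same signs, with 0.58, 0.61 and -0.43. Syt10, a synaptotagmin, stood at 0.83, 0.80 and -2.02, and Kcnh2, a potassium channel, at 0.47, 0.33 and -1.23. In all of these, replicates 1 and 2 were above 0 and replicate 3 was below 0, as the choice required. Dusp8 and Ptms are the other genes in that direction. In the reverse direction stood Pa2g4, Rcor3, Sacm1l, Irf2bpl (-1.44, -1.47 and 0.32) and Lpgat1 (-1.56, -1.57 and 0.10).

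The classical inflammatory genes moved little, though some had very different untreated levels on the slides. Of 12 genes named for this purpose, only Ccl2, which encodes the monocyte attractant MCP-1, passed over 3 arrays. Ccl2 stood at 0.65, 0.65 and 0.54, a 1.53-fold rise (log2 0.61 ± 0.06, n = 3, adjusted p 0.00719). Its 3 arrays were nearly equal. Tnf stood at -0.22, -0.21 and -0.38 and fell on slide 2 (log2 -0.21 ± 0.04, adjusted p 0.00894) but did not pass over 3 arrays (0.116). Cxcl10, an interferon-inducible chemokine, stood at -0.59, -0.49 and -0.21, and Ptgs2 (cyclooxygenase-2) at -0.14, -0.14 and -0.28. Both were below 0 on all 3 arrays and fell on slide 2, with adjusted p over 3 arrays of 0.332 and 0.642.

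Tlr2, the receptor for bacterial lipoproteins, stood at -0.37, -0.31 and 0.01 and fell on slide 2 (adjusted p 0.00121). Nos2 (0.02, 0.00281 and 0.13), Il10 (0.00242, 0.02 and -0.15), Tlr4 (0.05, 0.01 and 0.29) and Cd14 (0.01, 0.11 and 0.21) did not pass on slide 2. Il1b, Il6 and Arg1 were not above background in both channels on all 3 arrays, with slide 2 means of -0.01, -0.02 and -0.12. On replicate 3 they stood at -0.38, -0.33 and 0.23. Untreated levels (log2 intensity) on replicates 1, 2 and 3 were 6.57, 6.61 and 12.11 for Il1b. They were 6.53, 6.54 and 8.43 for Il6, 6.57, 7.01 and 11.99 for Arg1 and 8.62, 8.68 and 12.31 for Ptgs2. The slide 2 ratios of these genes thus come from much dimmer signals than those on replicate 3. The inflammatory genes that passed on slide 2 therefore included a rise in Ccl2 and falls in Tnf, Cxcl10, Ptgs2 and Tlr2.

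Of 14 chemokines measured on slide 2, 2 rose, 4 fell and 8 did not pass, with a median of -0.07, where 15.6% of all genes rose and 24.5% fell. Ccl4 stood at -1.31, -1.31 and -0.53, below 0 on all 3 arrays (adjusted p over 3 arrays 0.053), Ccl3 (MIP-1 alpha) at -0.82, -0.73 and 0.55, and Ccl5 (RANTES) at -0.38, -0.35 and -0.19. Ccl3 thus had opposite signs on the slides where Ccl4 did not. Ccl7, a relative of Ccl2, stood at 0.60, 0.41 and -0.39 and rose on slide 2. Of 21 cytokines and inflammatory enzymes, 3 rose on slide 2 and 4 fell, against 10 and 2 under median centring. The rises were Il1rn, the interleukin-1 receptor antagonist (0.46, 0.23 and -0.34), Osm (0.33, 0.22 and 0.09) and Ifnb1, which was not above background in both channels on all arrays. The falls were Tnf, Ptgs2, Ptges and Saa3.

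Among 22 Toll-like receptors and adaptors, 3 rose on slide 2, 6 fell and 13 did not pass (4 rises and 10 falls under median centring). Of all genes, 15.6% rose and 24.5% fell there after loess, shares close to those of this list. Irak2 rose, as did Ticam1 (TRIF; 0.38, 0.27 and -0.07) and Tlr9 (0.35, 0.23 and 0.07). Tlr1 (-0.69, -0.46 and -0.03) and Tlr6 (-0.66, -0.52 and 0.15), the partners of Tlr2, fell on slide 2, as did Nod1 (-0.47, -0.44 and 0.39), which senses peptidoglycan fragments. The receptors that fell on slide 2 were near or above 0 on replicate 3. Of 18 NF-kB subunits and inhibitors, 2 rose (Rela, Ikbkb) and 7 fell, led by the inhibitor Nfkbie (-0.83, -0.70 and 0.18) and the coactivator Bcl3 (-0.68, -0.54 and -0.14). Rela stood at 0.40, 0.31 and -0.24, but at -0.015 on slide 2 under median centring. None of the genes of either list passed over 3 arrays.

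Of 44 measured interferon-stimulated effectors, 10 rose, 16 fell and 18 did not pass on slide 2, with a median of -0.10, where 15.6% of all genes rose and 24.5% fell. Under median centring 3 rose and 22 fell. Falls included Igtp (an immunity-related GTPase; -0.75, -0.76 and 0.21), Rtp4 (-0.69, -0.82 and -0.24) and Isg15 (the ubiquitin-like modifier; -0.53, -0.45 and -0.51), the last of which was about equally low on all 3 arrays. Trim25, the ligase that activates RIG-I, stood at 0.87, 0.68 and 0.02 and Slfn5 at 0.48, 0.49 and 0.07, and both rose on slide 2. Second probes stood there at 0.16 for Trim25 and at -0.29 for Slfn5. Replicate 3 was above 0 for 21 of the 44 genes. Untreated levels (log2 intensity) on replicates 1, 2 and 3 were 14.56, 14.76 and 8.26 for Rtp4 and 12.42, 12.44 and 9.03 for Igtp. For Trim25 they were 12.44, 10.84 and 12.55. The slides thus compare some of these genes at very different starting levels.

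Of 22 IRF and STAT factors and their receptors, 3 rose and 12 fell on slide 2, a share of falls above that of all genes (24.5%), and the median was -0.20. Irf2 (-0.83, -0.79 and 0.07), Stat3 (-0.74, -0.79 and -0.03) and Ifnar1, a chain of the type I interferon receptor (-0.52, -0.58 and 0.11), fell. Irf7, the factor that amplifies type I interferon, stood at 0.24, 0.25 and -0.33 and rose on slide 2 after loess. Under median centring it stood at -0.12 on slide 2, and the list had 0 rises and 16 falls. The median on replicate 3 was 0.07, and none passed over 3 arrays.

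Early response factors changed on slide 2 in both directions. Of 29 measured AP-1 and early response factors, 7 rose and 12 fell, beside 15.6% and 24.5% of all genes. Klf2, a Krüppel-like factor that restrains macrophage activation, stood at -0.96, -1.004 and 0.17, Fos at -0.78, -0.76 and 0.44 and Junb at -0.57, -0.55 and 0.70. These 3 genes had opposite signs on the slides. For Klf2 the mean over all its probes had the opposite sign on slide 2, at 0.44. Srf, which drives actin genes, stood at 1.01, 0.92 and 0.11, Klf10 at 0.71, 0.71 and -0.30 and Fosl1 at 0.79, 0.52 and -0.31, and these rose on slide 2. Of 14 MAPK brakes, 3 rose and 4 fell (6 and 6 under median centring), among them Dusp7 (-1.07, -1.05 and -0.21) and Dusp2 (-0.84, -0.89 and 0.32).

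The macrophage's own genes were mixed. Of 20 measured identity genes, 4 rose and 6 fell on slide 2 (4 and 11 under median centring), and the median was 0.03. Among all genes, 15.6% rose and 24.5% fell after loess. Lyz2 (lysozyme) stood at -0.61, -0.61 and 0.10, Tyrobp (the adaptor DAP12) at -0.69, -0.57 and 0.18 and Fcgr1 (the high-affinity IgG receptor) at -0.55, -0.63 and 0.19. All of these fell on slide 2 and were above 0 on replicate 3. Spi1 (PU.1, the lineage factor) stood at -0.60, -0.47 and -0.26, below 0 on all 3 arrays. Cebpb stood at 0.96, 1.01 and -0.16 and rose on slide 2, as did Itgb2 (0.28, 0.27 and 0.12), Csf1r and Ctss, which under median centring stood below 0, at -0.15, -0.18 and -0.28. Of 22 uptake and pattern receptors, 6 rose and 3 fell on slide 2, and the lectin Clec4e (Mincle) passed over both available arrays (0.84 and 0.75, with no value on replicate 3).

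In the list of class I antigen presentation and the immunoproteasome, 4 of 17 genes rose and 5 fell on slide 2 after loess. There 15.6% of all genes rose and 24.5% fell. Under median centring the list had 1 rise, 9 falls and a median of -0.38. H2-D1 stood at 0.61, 0.67 and -0.13 and Tapbp (tapasin) at 0.46, 0.47 and 0.04 (-0.019 on slide 2 under median centring), whereas the proteasome subunit Psmb8 stood at -0.36, -0.37 and -0.46, below 0 on all 3 arrays. In the class II list, 1 of 10 rose (Ctss) and 2 fell (2 and 1 under median centring), Cd74 (the invariant chain; -0.29, -0.32 and -0.13) and Cd80 (-0.35, -0.29 and -0.31).

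Genes of the lysosome rose more often than they fell on slide 2 after loess, and fell more often under median centring, with 6 rises and 21 falls in the lysosome and 1 and 8 in the proton pump. After loess, of 49 measured lysosomal genes, 22 rose, 11 fell and 16 did not pass, with a median of 0.08. Of 17 subunits of the vacuolar proton pump, which acidifies lysosomes, 9 rose and 2 fell, with a median of 0.16. The shares of all genes were 15.6% up and 24.5% down. Acp5 (an acid phosphatase) stood at 0.57, 0.49 and -0.25, Hexa (a hexosaminidase) at 0.47, 0.56 and 0.03 and Ctsd (cathepsin D) at 0.43, 0.59 and -0.19 (-0.037 on slide 2 under median centring). Ctsc (cathepsin C) stood at -0.60, -0.74 and -0.10 and fell. On replicate 3 the medians were -0.05 for the lysosome and -0.18 for the pump, and 20 of 48 lysosomal genes were above 0. The pump subunit Atp6v1g1 stood at 0.43, 0.56 and 0.51 and passed over 3 arrays (adjusted p 0.0217), but at -0.043 on slide 2 under median centring. Of 26 autophagy genes, 5 rose and 4 fell on slide 2 (0 and 10 under median centring), and Bnip3, a mitophagy receptor induced by hypoxia, passed over 3 arrays.

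Genes of cholesterol synthesis fell on slide 2 more often than all genes (24.5%). Of 26 measured, 2 rose and 13 fell, with a median of -0.15, and the median on replicate 3 was -0.12. Stard4, a cholesterol carrier, stood at -0.98, -0.81 and -0.26. Hsd17b7, a sterol reductase, stood at -0.80, -0.86 and -0.34 and passed over 3 arrays (log2 -0.67 ± 0.10, adjusted p 0.022). In these genes all 3 arrays were below 0, but the second probe of Hsd17b7 stood at 0.12 on slide 2. Fdft1 (squalene synthase; 0.68, 0.32 and -0.11) and Sqle (0.32, 0.21 and 0.12) rose on slide 2, though under median centring Sqle stood at -0.093. Of 19 genes of fatty acid synthesis, 3 rose and 10 fell, including Fasn (-0.71, -0.59 and 0.41), whose sign differed on replicate 3.

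Of 19 LXR targets and lipid storage genes, 8 rose and 3 fell on slide 2 (5 and 5 under median centring), with a median of 0.14. After loess 15.6% of all genes rose there and 24.5% fell. Plin2, which coats lipid droplets, stood at 0.39, 0.58 and 0.73, highest on replicate 3, and passed over 3 arrays (log2 0.57 ± 0.09, adjusted p 0.0274). Under median centring it stood at -0.10 on slide 2. Lpl (lipoprotein lipase; 0.75, 0.91 and 0.04) and Hilpda (a hypoxia-induced droplet protein; 0.80, 0.71 and 0.07) rose on slide 2 and were near 0 on replicate 3. The direction of Lpl depends on the probe, since its dimmer one stood at -0.31 on slide 2.

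Stress response genes moved in both directions. Of 21 genes of the integrated stress response, 8 rose and 6 fell on slide 2 (3 and 4 under median centring). For all genes the shares after loess were 15.6% and 24.5%. Atf3 stood at 0.61, 0.54 and -0.12, Ddit4 (a brake on mTORC1) at 0.49, 0.48 and 0.06 and Atf4 at 0.32, 0.22 and -0.63 (-0.027 on slide 2 under median centring). Of 30 genes of amino acid synthesis, transport and tRNA charging, 8 rose and 2 fell (4 and 12 under median centring), led by Slc3a2 (0.88, 0.86 and -0.51), the heavy chain of amino acid transporters. Of 24 endoplasmic reticulum chaperones and factors, 3 rose and 8 fell (0 and 14 under median centring), with Syvn1 at -0.47, -0.55 and -0.04 and Canx at 0.42, 0.44 and 0.17 (-0.046 on slide 2 under median centring). None of the genes of these 3 lists passed over 3 arrays.

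Heat shock proteins held 3 of the 57 genes that rose over 3 arrays, which are 0.375% of all genes tested. Hsph1 (HSP110) stood at 0.50, 0.55 and 0.45, a mean of 0.50 ± 0.07 (adjusted p 0.0177), Hsp90aa1 at 0.32, 0.49 and 0.66 and Hsp90ab1 at 0.65, 0.60 and 0.24. Each was above 0 on all 3 arrays, with replicate 3 highest for Hsp90aa1 and lowest for Hsp90ab1. Under median centring Hsp90aa1 stood at -0.18 on slide 2, and the dimmer probe of Hsp90ab1 stood at -0.33 there. On slide 2, 6 of 21 heat shock genes rose and 4 fell (0 and 11 under median centring), beside 15.6% and 24.5% of all genes after loess. Among the 4 was the constitutive Hspa8 (-0.37, -0.35 and -0.29). Hspa1a and Hspa1b, the inducible HSP70 genes, were not above background in both channels on all 3 arrays. The promoter of Hsph1 is shown because it is the heat shock gene with the most even values and lies in the RefSeq promoter table (GRCm38.p6). The 250 bases before its start, at chr5:149636337-149636586 on the minus strand, hold 1 match to the core of a heat shock element, GAANNTTC or TTCNNGAA on either strand, 33 bases before the start and in capitals here.
Hsph1: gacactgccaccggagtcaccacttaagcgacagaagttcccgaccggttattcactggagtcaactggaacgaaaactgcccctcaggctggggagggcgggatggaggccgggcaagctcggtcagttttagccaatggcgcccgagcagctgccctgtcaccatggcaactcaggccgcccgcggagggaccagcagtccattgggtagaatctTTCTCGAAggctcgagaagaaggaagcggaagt
This core was found in 4218 of 32851 promoters of that length (12.8%) and in 9 of 23 promoters of the list. It lay in 3 of 5 promoters of the members that rose on slide 2 and in 0 of 2 promoters of those that fell. A gene can have several promoters here. Promoters were available for 17 of 22 list members, 3 of the 6 that rose and 2 of the 4 that fell.

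Targets of NRF2, a transcription factor of the oxidative stress response, rose more often than they fell on slide 2 after loess. Under median centring they fell more often, with 4 rises and 12 falls. After loess, of 26 measured, 12 rose and 4 fell, with a median of 0.14, where 15.6% of all genes rose and 24.5% fell. Hmox1 (heme oxygenase 1) stood at 0.81, 0.99 and 0.19, a 1.87-fold rise on slide 2, Srxn1 (sulfiredoxin) at 0.66, 0.73 and -0.05 and Nqo1 at 0.56, 0.31 and 0.54. Hmox1 and Nqo1 were above 0 on all 3 arrays. Bach1, the repressor of Hmox1, stood at -1.01, -0.74 and -0.42 and fell over 3 arrays. Of 15 iron handling genes, 6 rose on slide 2 and 2 fell, with Slc40a1 (ferroportin, the iron exporter) at 0.61, 0.44 and 0.25.

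The list with the highest median on slide 2 after loess was that of glycolysis and hypoxia, at 0.26, whereas under median centring its median was -0.16, with 1 rise and 10 falls. After loess, of 31 measured genes, 19 rose, 5 fell and 7 did not pass, where 15.6% of all genes rose. Adm (adrenomedullin) stood at 0.92, 0.87 and 0.34, Slc2a1 (the glucose transporter GLUT1) at 0.68, 0.76 and 0.44 and Bnip3 at 0.66, 0.77 and 0.43. These 3 genes were above 0 on all arrays, and Bnip3 passed over 3 arrays (log2 0.62 ± 0.08, adjusted p 0.0179). Pkm (pyruvate kinase) stood at 0.73, 0.91 and -0.31, and Ldha (lactate dehydrogenase) at 0.51, 0.75 and -0.05, with replicate 3 below 0. Hif1a itself fell over 3 arrays, at -0.50, -0.48 and -0.23 (adjusted p 0.0462), and Eno1 fell on slide 2 (-0.30, -0.36 and -0.51). On replicate 3 the median of the list was 0.11 and 19 of 32 genes were above 0.

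The promoters of 4 members that rose on slide 2 after loess are shown with the core of the hypoxia response element, ACGTG on either strand, in capitals. They come from the RefSeq promoter table (GRCm38.p6) and cover the 250 bases before the start. Slc2a1 lies at chr4:119108495-119108744 (plus strand), Ldha at chr7:46845554-46845803 (plus), Pgk1, a glycolytic kinase at 0.30, 0.54 and 0.19 (-0.17 on slide 2 under median centring), at chrX:106186850-106187099 (plus) and Bnip3 at chr7:138909507-138909756 (minus).
Slc2a1: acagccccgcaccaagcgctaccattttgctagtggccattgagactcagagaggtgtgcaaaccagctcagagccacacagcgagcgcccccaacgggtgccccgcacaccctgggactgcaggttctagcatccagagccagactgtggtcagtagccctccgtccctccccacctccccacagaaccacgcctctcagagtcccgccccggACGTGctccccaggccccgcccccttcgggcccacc
Ldha: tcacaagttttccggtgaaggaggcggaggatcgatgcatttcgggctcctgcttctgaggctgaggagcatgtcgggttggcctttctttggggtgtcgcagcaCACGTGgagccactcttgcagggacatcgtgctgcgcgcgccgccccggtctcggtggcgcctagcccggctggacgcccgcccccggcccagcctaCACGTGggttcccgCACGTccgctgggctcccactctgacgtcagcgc
Pgk1: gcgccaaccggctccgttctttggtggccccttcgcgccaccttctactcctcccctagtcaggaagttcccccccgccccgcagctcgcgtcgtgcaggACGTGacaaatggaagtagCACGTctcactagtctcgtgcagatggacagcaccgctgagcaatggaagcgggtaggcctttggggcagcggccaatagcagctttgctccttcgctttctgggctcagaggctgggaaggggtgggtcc
Bnip3: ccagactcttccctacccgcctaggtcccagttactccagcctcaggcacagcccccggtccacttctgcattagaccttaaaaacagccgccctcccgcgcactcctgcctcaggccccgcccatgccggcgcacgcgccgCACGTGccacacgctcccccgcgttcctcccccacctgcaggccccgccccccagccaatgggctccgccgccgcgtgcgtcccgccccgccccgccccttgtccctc
Slc2a1 holds 1 match, Pgk1 2, Bnip3 2 and Ldha 5, where matches on both strands of the palindrome CACGTG overlap. The core was found in 5444 of 32851 promoters (16.6%) and in 23 of 46 promoters of the list. It lay in 14 of 25 promoters of the members that rose on slide 2 and in 3 of 9 promoters of those that fell. Several promoters can belong to 1 gene. They were available for 31 of 32 list members, 18 of the 19 that rose and all 5 that fell.

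Of 46 measured genes of the respiratory chain and ATP synthase, 9 rose and 15 fell on slide 2, where 15.6% of all genes rose and 24.5% fell, and under median centring 0 rose and 34 fell. The median after loess was -0.07, and 10 of 46 were above 0 on replicate 3, where the median was -0.12. Atp5h stood at -0.90, -0.74 and -0.01, and Sdhc, a subunit of complex II, at -0.31, -0.35 and -0.38. Sdhc was nearly equal on all 3 arrays and fell over them (adjusted p 0.0314).

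Of 41 measured cell cycle and replication genes, 5 rose and 18 fell on slide 2, where 15.6% of all genes rose and 24.5% fell, with a median of -0.12 on slide 2 and -0.02 on replicate 3. The counts were 3 and 8 with the scanner's processed signals and 3 and 26 under median centring. Cdc25b, a phosphatase that activates CDK1, stood at -1.005, -1.03 and -0.02, Ccna2 (cyclin A2) at -0.60, -0.57 and -0.03 and Kif20a at -0.60, -0.59 and 0.01. By the probe that represents it, each was far below 0 on slide 2 and near 0 on replicate 3. The other probes of Cdc25b stood at 0.13 and -0.09 on slide 2. Pcna, the replication clamp, stood at 0.71, 0.80 and -0.02 and rose.

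Splicing and RNA-processing genes rose more often than they fell on slide 2 after loess, but under median centring 3 rose and 18 fell, and with the mean of each gene's probes 12 rose and 12 fell. Of 38 measured, 18 rose and 6 fell on slide 2 after loess, where 15.6% of all genes rose and 24.5% fell. Over 3 arrays Hnrnpk and Hnrnpa1 (0.55, 0.61 and 0.60) rose and Rbm25 (-1.11, -1.06 and -0.41) fell. A dimmer probe of Rbm25 stood at 0.38 on slide 2. Hnrnpa1 was nearly equal on all 3 arrays. Sf3b1, the branch point factor, stood at -1.25, -1.16 and 0.04, but its other probe at 0.24 on slide 2. Of 41 Golgi and vesicle genes, 15 rose and 9 fell on slide 2 (0 and 17 under median centring, 8 and 11 with the mean of probes), with Arf1 at 0.61, 0.55 and -0.32, and Golgb1 was the only one to pass over 3 arrays. Of 48 ribosomal protein genes on the array, 32 had values on slide 2 once saturated spots were left out. After loess 10 rose and 5 fell, with the scanner's processed signals 1 and 5 and under median centring 0 and 22, and 35 of 46 with a value on replicate 3 were above 0 there.

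**Figure D4:**
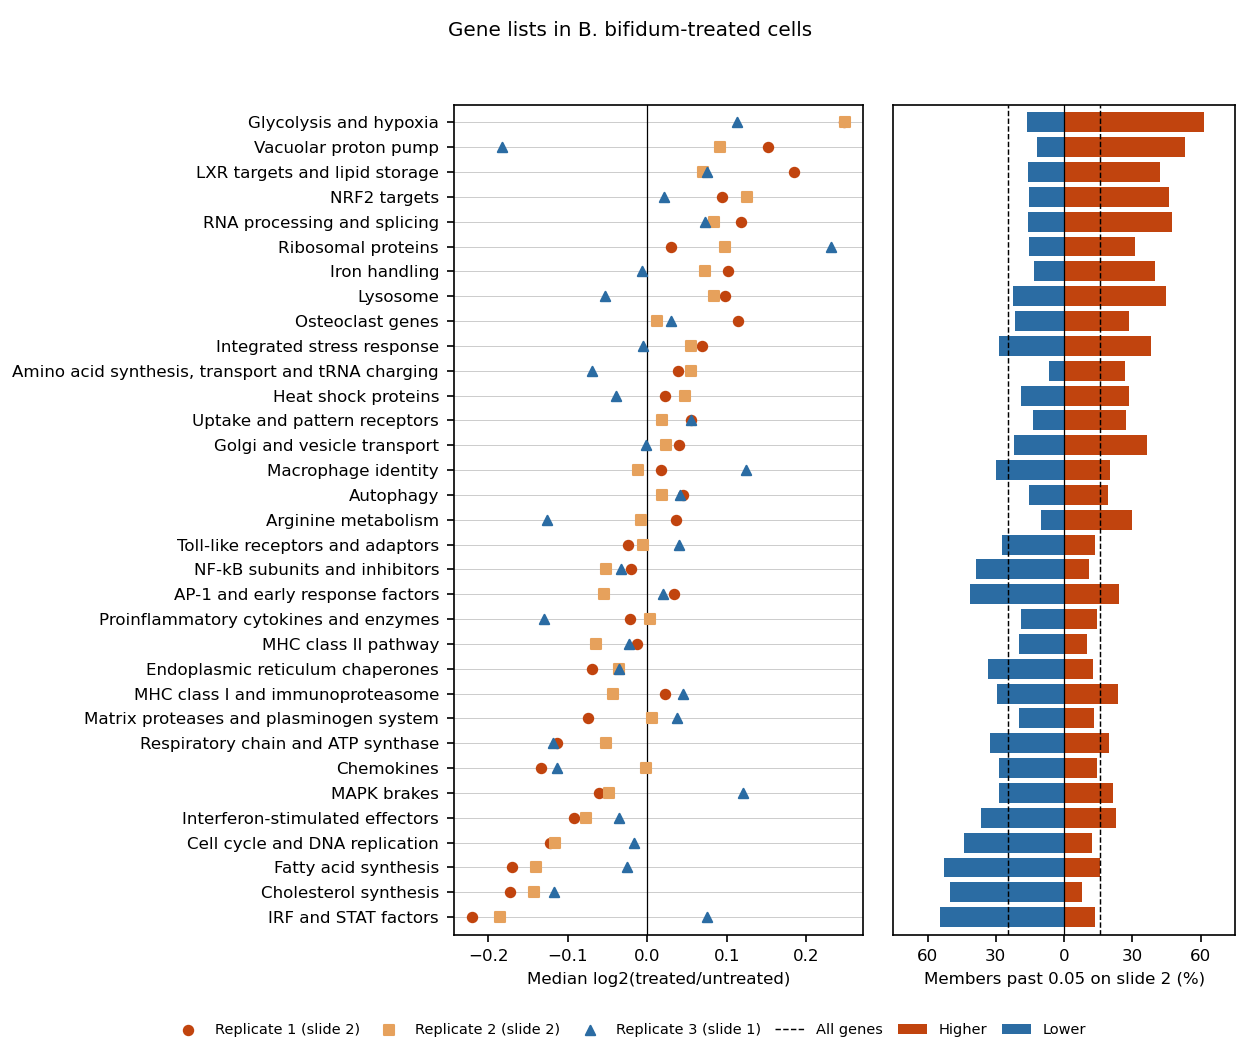
For each of 33 gene lists, the median log2 ratio on each array (left, 1 symbol per array) and the percentage of measured members past an adjusted p of 0.05 on slide 2, higher to the right and lower to the left (right), with dashed lines at 15.6% and 24.5% for all genes. Glycolysis and hypoxia lies at the top (median 0.26) and IRF and STAT factors at the bottom (-0.20) on slide 2 after loess (-0.16 and -0.46 under median centring), and replicate 3 often lies on the other side of 0.

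B. bifidum was set against B. clausii, the other bacterium with arrays on slide 2. The direct contrast of 2 arrays each passed for 4793 of 15152 genes (31.6%), 2378 higher in B. bifidum (15.7%) and 2415 lower (15.9%). With the scanner's processed signals 2837 passed, 1631 higher and 1206 lower, and with strain means over all 8 arrays 4 passed (0.0263%, with 0.0132% in each direction), namely Plin2, Npc2, Ddit4 and U2surp, the first 3 of them without a value on B. clausii replicate 3. B. clausii against untreated cells had 8466 of 15152 genes past the threshold on slide 2 (55.9%). Whether the untreated RNA on the 4 arrays of this slide came from the same cultures is not given in the sources used here.

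Cholesterol synthesis separated the strains in each scaling tried, with 11 to 21 of its genes lower in B. bifidum and 0 higher. Of 26 genes, 21 were lower in B. bifidum than in B. clausii and 0 were higher, where 15.9% of all genes were lower, and the median was -0.15 with B. bifidum and 0.42 with B. clausii. Stard4 differed by -1.80 ± 0.09 (SE; adjusted p 0.000198), at -0.89 with B. bifidum and 0.91 with B. clausii, and Idi1 and Msmo1, enzymes of the pathway, by -1.55 and -1.45. Chac1, a glutathione-degrading enzyme of the stress response, differed most, at 0.18 and 0.13 with B. bifidum and a mean of 3.15 with B. clausii. Its level was thus close to that of untreated cells with B. bifidum.

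Lysosomal genes were more often higher than lower in B. bifidum. Of 49, 39 were higher and 1 (Ctsc) was lower after loess, where 15.7% of all genes were higher, and 12 and 1 under median centring. The medians after loess were 0.08 with B. bifidum and -0.37 with B. clausii. Of 17 proton pump subunits 14 were higher and 1 lower (5 and 0 under median centring). Interferon-stimulated effectors had 30 of 44 higher and 1 (Ddx58) lower, with medians of -0.10 and -0.65 (11 and 1 under median centring). Of 20 macrophage identity genes 15 were higher and 0 lower (5 and 0 under median centring), among them Lyz2, at -0.61 with B. bifidum and -1.64 with B. clausii. NRF2 targets had 14 of 26 higher and 3 lower (6 and 0 under median centring), with Hmox1 at 0.90 and -0.97. In the early response list, 15 of 29 were lower and 2 higher (9 and 0 under median centring). Cxcl10 stood at -0.54 with B. bifidum and 1.09 with B. clausii, a difference of -1.63 ± 0.06 (adjusted p 8.68e-05), and Ccl4 at -1.31 and 0.60.

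Of the single genes furthest from B. clausii, Plau (urokinase) stood at 1.18 and 1.11 with B. bifidum against a mean of -1.04 with B. clausii. Abcg1, a cholesterol exporter, stood at -0.17 and -0.18 against -2.35. Selenbp1 stood at 0.29 and 0.43 against -2.32. For Abcg1 and Selenbp1 the distance thus lay mostly in a fall with B. clausii. By their brightest probes, Plau rose with B. bifidum and Rnf20 and Pa2g4 fell with it (0.15 and 0.14 with B. clausii). The dimmer probe of Plau had a mean of 0.10 on slide 2 with B. bifidum. On slide 1 each of these strains has 1 array, that of B. clausii with the failed grid, and no contrast was made there.

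**Figure D5:**
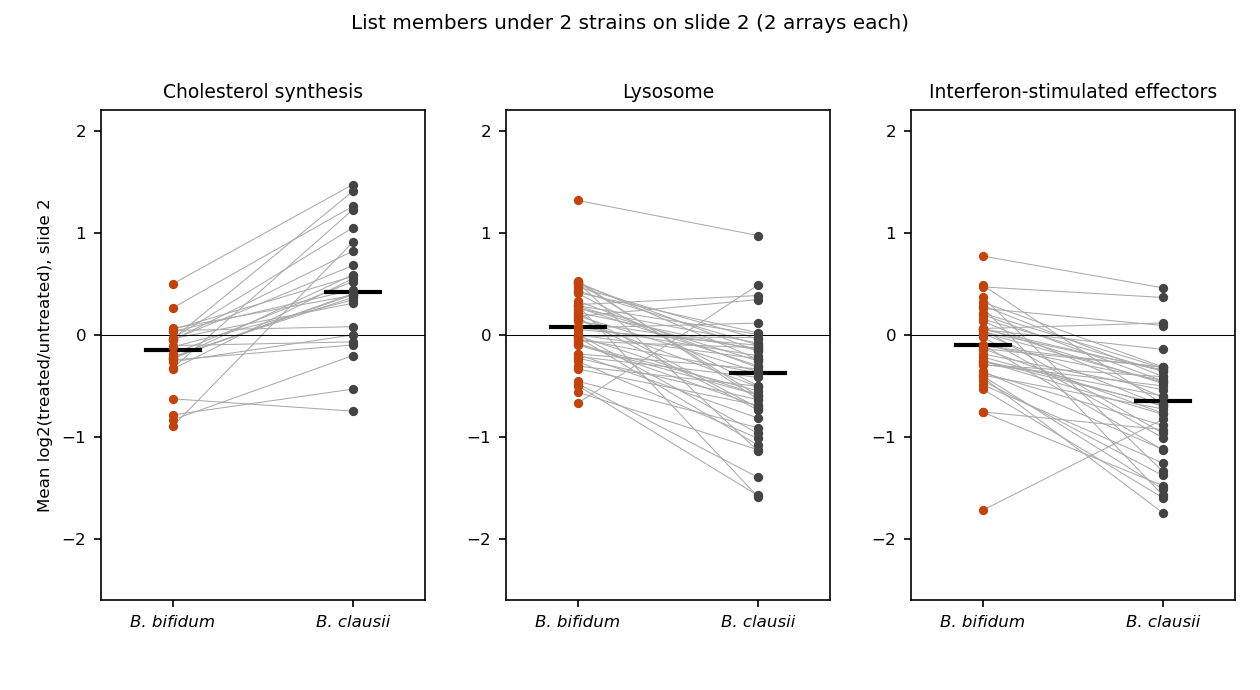
Mean log2 ratio of treated over untreated on slide 2 (y axis) for the measured members of 3 lists, each member joined between B. bifidum and B. clausii, with black bars at the medians. The medians are -0.15 and 0.42 for cholesterol synthesis, 0.08 and -0.37 for the lysosome and -0.10 and -0.65 for interferon-stimulated effectors.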

How the data were processed

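Gene expression was measured on 8 two-colour Agilent arrays, 3 of them of B. bifidum. The deposited scanner files hold background and median signals per spot as intensity, extracted with Feature Extraction 10.7.3.1 per the file headers (10.5.1.1 per the submitters' processing notes). The deposited value table holds log10 ratios that equal the scanner's own log ratios within 0.005 on every array. Background correction of the median intensities used normexp with an offset of 50, fitted to all spots, and arrays were normalized singly by loess with control spots at weight 0, in limma 3.58.1 under R 4.3.3 with version 1.17.8 of data.table, giving log2 ratios computed here. Saturated and outlier spots were left out, and some genes are not reported here. A probe was kept where at least 1 channel was well above background on at least 2 arrays, leaving 15203 genes. The probe with values on the most B. bifidum arrays represented a gene, and among equals the brightest. Names came from the accessions on the array through a RefSeq table (GRCm38.p6), which named 29169 of 43379 probe features.

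Strain means (3 arrays) or strain-by-slide means were fitted with limma over all 8 arrays, which share the estimate of the spread, and adjusted p-values are Benjamini-Hochberg over all genes. On slide 1 B. bifidum has 1 array. The fits were tested on simulated data with independent noise on every array and no slide effect. That test checks the code and cannot vouch for the p-values of these arrays. Genes were named by rule from those above background in both channels on all 3 arrays: the 8 largest rises and falls over 3 arrays and on slide 2, the 5 largest differences each way between slides and from B. clausii, 12 inflammatory genes, and up to 3 members of each list in each direction, with further members where the account of a list needed them. The genes named over 3 arrays had to have the same sign on all 3 arrays. Those named for the difference between slides had to have opposite signs on the slides. The members and lists were chosen with earlier results of these data known. Alternatives covered background correction, scaling, saturated spots, filters, probes, blocks and leaving out each array. Untreated cells were the Cy3 channel, so their spread enters every log ratio and is not separated from that of treated cells.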

Additional observations from a re-analysis of the deposited data

Results flagged for a closer look

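A test of the difference between the responses to B. bifidum and to B. clausii on slide 2 picked out 4793 genes. Among the named genes, those higher with B. bifidum were Selenbp1 (a log2 difference of 2.68), Selenbp2 (2.67), Fam20c (2.44), Plau (2.19) and Abcg1 (2.17). Those lower with B. bifidum were Chac1 (-3.00), Adgre5 (-2.38), Zbtb32 (-2.33), Rnf20 (-2.05) and Pa2g4 (-2.00). Each of these rests on 2 arrays per strain, and Selenbp1 and Selenbp2 are close paralogues whose probes may share signal.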

How the results depend on the processing

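The count over 3 arrays (223) was 1 with the scanner's processed signals (2339 genes at an unadjusted p below 0.05), 3 with the deposited value table (2596), 20 with median centring, 133 with an intensity trend and robust fit, 2087 with slide as a block and 0 from the B. bifidum arrays alone (2678 unadjusted, limma). It was 0 with the arrays of a strain on a slide averaged (552 unadjusted), an alternative chosen after seeing the data. Leaving out single arrays gave 0 to 2035, and 3647 to 6096 on slide 2, 3042 to 4518 between slides and 3355 to 4793 against B. clausii. The difference between slides fell from 4518 genes to 1826 with processed signals, 1911 with the deposited table and 1452 with median centring. The difference from B. clausii fell from 4793 to 2837, 2943 and 791, and to 4 with strain means over all 8 arrays. The causes were not tested. Median centring moved the median of all genes on replicate 2 from -0.02 to 0.15. It turned the slide 2 sign of Il1b (0.62), Il6 (0.65), Arg1 (0.42), Tlr4 (-0.29), Cd14 (-0.50), Itgb2 (-0.15), Csf1r (-0.18), Rela (-0.015), Irf7 (-0.12), Ctss (-0.28), Tapbp (-0.019), Atp6v1g1 (-0.043), Sqle (-0.093), Canx (-0.046), Atf4 (-0.027), Ctsd (-0.037), Hsp90aa1 (-0.18), Pgk1 (-0.17) and Plin2 (-0.10). The mean of probes turned Ptms (-0.037) and Klf2 (0.44), no background correction Il10 (-0.00258) and Cd14 (-0.017), and processed signals and the deposited table Cd14 (-0.07997 and -0.07989). Leaving out single B. bifidum arrays put Il6 between -0.049 and 0.013. The replicate block gave 2183 genes over 3 arrays, 5574 on slide 2, 3862 between slides and 4206 against B. clausii. The numbers do not pair the samples: deviations of same-numbered B. bifidum and B. clausii arrays correlated with 0.387 to 0.479, but those with L. acidophilus with -0.06 and -0.000211, and within slide 2 the value was 0.08.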

Other observations

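Chromatin genes held several of the falls over 3 arrays, in sets put together after their values were seen. Of 32 histone genes by symbol, 5 fell over 3 arrays and 0 rose, where 1.09% of all genes fell and 0.375% rose, and 16 were below 0 on all 3 arrays, against 22.6% of all genes with 3 values. The linker histone H1f4 stood at -0.90, -0.68 and -0.85 and H1f5 at -0.80, -0.72 and -0.78. The core histones H2ac13 (-0.85, -0.81 and -0.76) and H2ac15 (-0.82, -0.75 and -0.69) were as even, with replicate 3 within the range of slide 2 or close to it. On slide 2, 7 of 31 histone genes rose and 14 fell. Histone genes are near-identical copies, so their probes may read each other's transcripts. Of 23 remodellers of the chromodomain, BAZ and SMARC families, 5 fell over 3 arrays (Baz1b, Chd1, Chd3, Chd8 and Smarca5) and 0 rose, beside the same 1.09% of all genes. The 4 probes of Smarca5 ranged from -0.50 to 0.39 on slide 2, and the other probe of Baz1b stood at 0.10 there. Chd1 stood at -0.81, -0.70 and -0.95. Smarca4, the BRG1 ATPase, stood at -1.55, -1.48 and -0.05 and Chd4 at -1.06, -1.14 and 0.11, far below 0 on slide 2 only. Other probes stood on slide 2 at 0.18 and -0.53 for Smarca4 and at -0.12 and -0.67 for Chd4.

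Of the remaining lists, osteoclast genes had 4 rises and 3 falls among 14 on slide 2 (5 and 3 under median centring), arginine metabolism 3 and 1 among 10 (2 and 3), and matrix proteases with the plasminogen system 2 and 3 among 15 (6 and 2). Of all genes 15.6% rose and 24.5% fell on slide 2 after loess. On replicate 3, 22 genes lay past 1 in size, 1 of them above 0. Pxt1 stood at -0.45, -0.10 and -2.31, Caskin2 at -0.41, -0.38 and -2.00 and Grin3b, an NMDA receptor subunit, at -0.54, -0.53 and -1.74. In these 3 genes replicate 3 was much lower than both arrays of slide 2.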
